A study of Danio rerio with 6 samples.

Results

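The phagocyte NADPH oxidase genes cybb, cyba, ncf1, ncf4 and rac2 were followed subunit by subunit in cd41-positive cells of zebrafish embryos. They were chosen by name, with earlier results of these data known. Their rows are those of the count table whose Ensembl identifier is paired with one of these symbols without regard to case. All 5 members were found among 32105 genes, and all 5 were among the 18722 genes tested. The cells were isolated 40 hours after fertilization from embryos with the genotype ddx41 mutant and from embryos that the genotype label calls wildtype and the series design calls siblings, with 3 libraries each. DDX41 is a DEAD-box RNA helicase, and cd41 (itga2b) encodes an integrin chain whose reporter is used to sort early blood progenitors and thrombocytes. The labels name no ddx41 allele, number of embryos or clutch, so the p-values rest on the spread among the libraries alone, which may be technical.

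The phagocyte NADPH oxidase passes electrons from NADPH in the cytosol across a membrane to oxygen and so makes superoxide, the source of the respiratory burst of neutrophils and macrophages. The catalytic chain cybb (gp91phox, also called Nox2) and its partner cyba (p22phox) form a cytochrome in the membrane. Cytosolic proteins, ncf1 (p47phox) and ncf4 (p40phox) among them, join these chains when the cell is stimulated, together with the GTPase rac2. In humans, loss of cybb, cyba, ncf1 or ncf4 causes chronic granulomatous disease or related forms of it. In zebrafish, rac2 is required for neutrophil migration.

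The mutant libraries held 14577735 to 15912260 counts in genes, and the wildtype libraries 17001423 to 17639699. The mitochondrial genome took 26.5% to 30.7% of the counts of mutant libraries and 21.3% to 27.6% of those of wildtype libraries. Mutant replicate 1 stood apart from the other mutants (chi-square per degree of freedom 107 and 110, against 18.3 between mutant replicates 2 and 3), and wildtype replicate 1 from the other wildtypes (95.4 and 104, against 40.2). The sorted cells did not carry stem cell markers alone. The reporter's own gene itga2b stood at 4.45 ± 1.91 CPM (counts scaled to library size with TMM factors, per 1e6) in the mutants, against 1.997 ± 1.075 CPM for wildtypes (± SD, n = 3 each), and the progenitor gene MYB at 95.2 ± 26.3 and 159 ± 58.6 CPM. Neither of these 2 genes passed the test (edgeR quasi-likelihood adjusted p = 0.326 and 0.224), but others of their lists did. Over all tested genes edgeR called 3.34% higher in mutants and 1.99% lower. Of 11 tested thrombocyte markers 5 were higher in mutants (gp9, GP1BB, NFE2, tubb1 and GFI1B, 4.002-fold to 9.54-fold) and 1 lower (a FERMT3 gene, 3.31-fold). The log2 fold change was negative for 5 of the 11, among them mpl (-2.68, edgeR adjusted p = 0.0688). Of 9 tested blood progenitor markers TAL1 was higher (5.97-fold, edgeR adjusted p = 0.0262) and 8 did not pass. The log2 fold change was negative for 7 of these 9. Neutrophil markers were far more abundant as a sum, at 11014 to 14778 CPM over 7 matched genes in mutant libraries and 18225 to 38887 CPM in wildtype libraries. Most of this sum was lyz and npsn, with means of 8280 and 2580 CPM in mutants and 20411 and 5589 CPM in wildtypes. The lowest of the list, cebp1 and CSF3R, had means of 67.0 and 99.4 CPM in mutants and 112 and 167 CPM in wildtypes, near those of MYB. Red blood cell markers summed to 4605.9 to 16087 CPM over 10 genes in mutant libraries, against 304.2 to 2381.8 CPM in wildtype libraries, and lens markers to 56.5 to 179 and 10.4 to 10.7 CPM over 7 genes. By edgeR 8 of 10 tested red blood cell markers and 4 of 6 tested lens markers were higher in mutants, and 0 were lower. Neural markers summed to 32.04 to 45.7 CPM over 5 genes in mutant libraries and 92.3 to 363 CPM in wildtype libraries, and 2 of the 5 were lower. Epidermis markers summed to 4229 to 13811 CPM over 6 genes in mutant libraries, highest in mutant replicate 1. In wildtype libraries they summed to 7940 to 10299 CPM, and 0 of the 6 were called. The sums of mutant libraries were thus higher for red cell and lens markers, lower for neutrophil and neural markers and overlapping for epidermis markers. The part of this in the values below was not tested beyond the ratios given there.

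The light chain gene cyba fell in the mutants, and the other members had negative log2 fold changes that did not pass the test. Of the 5 members 1 was called lower at an edgeR adjusted p below 0.05, against 1.99% of all tested genes. Over all tested genes 3.34% were called higher and 5.33% in either direction, and DESeq2 called 6.24% lower. All 5 log2 fold changes were negative, against 49.0% of tested genes. The members were chosen with earlier results of these data known, so such counts are a description. Every mutant library lay below every wildtype library for cybb, cyba and ncf4, which was so for 13.4% of tested genes. In sorted cells of mixed kinds, fewer phagocytes and less RNA per phagocyte cannot be told apart.

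Among the membrane chains, cybb (ENSDARG00000056615, chromosome 11, 29547981 to 29569255, minus strand, GRCz10, 13 merged exons) stood at 216, 232 and 196 CPM in mutant replicates 1 to 3. In wildtype replicates 1 to 3 it stood at 234, 369 and 286 CPM. The highest mutant library and the lowest wildtype library were almost level, so the groups met without overlapping. The log2 fold change was -0.46 ± 0.25 (SE), a 1.38-fold lower mean that did not pass (edgeR adjusted p = 0.313).

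The other membrane chain, cyba (ENSDARG00000018283, chromosome 18, 31094846 to 31097287, plus strand, 4 merged exons), stood at 70.6, 77.6 and 53.9 CPM in mutant replicates 1 to 3. The wildtype replicates 1 to 3 held 122, 210 and 170 CPM. Each wildtype library was well above each mutant library. The gene was 2.48-fold lower in mutants, with means of 67.3 ± 12.2 against 167 ± 43.7 CPM (± SD, 3 libraries each; log2 fold change -1.31 ± 0.28 SE, edgeR adjusted p = 0.0312). The call held without mutant replicate 1 or wildtype replicate 1, the libraries that stood apart (adjusted p = 0.0320 and 0.0255). The call of cyba was lost when any of mutant replicate 2, mutant 3, wildtype 2 and wildtype 3 was left out (in that order, adjusted p = 0.105, 0.150, 0.131 and 0.0867). In these fits edgeR called 37, 21, 11 and 117 genes lower, against 373 with all libraries. The log2 fold change of cyba lay between -1.49 and -1.12 in every fit with a library left out. With all libraries cyba also passed by DESeq2 and limma voom (adjusted p = 0.000867 and 0.00354), which called 6.24% and 7.22% of tested genes lower.

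Of the cytosolic subunits, ncf1 (ENSDARG00000033735, chromosome 5, 60747820 to 60760976, minus strand, 11 merged exons) organizes the assembly and varied most. It stood at 218, 467 and 266 CPM in mutant replicates 1 to 3. The wildtype replicates 1 to 3 had 287, 751 and 420 CPM. Replicate 2 was the highest of each genotype, and the groups overlapped. Each mutant library lay below the wildtype library of the same number. With that number as a block ncf1 did not pass either (edgeR adjusted p = 0.146). The log2 fold change of ncf1 was -0.62 ± 0.41 (SE, edgeR adjusted p = 0.418), and without wildtype replicate 2 it was -0.16 (adjusted p = 0.871).

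The subunit ncf4 (ENSDARG00000040812, chromosome 22, 29255690 to 29302854, plus strand, 10 merged exons) binds a phosphoinositide lipid of phagosome membranes. Its mutant replicates 1 to 3 held 55.8, 47.1 and 60.5 CPM. Its wildtype replicates 1 to 3 held 73.9, 112 and 81.2 CPM, all above the mutants. The log2 fold change was -0.71 ± 0.26 (SE), a 1.63-fold lower mean that did not pass (edgeR adjusted p = 0.146, unadjusted p = 0.0224). It passed by limma voom with sample weights (adjusted p = 0.0491), which called 7.22% of tested genes lower. The authors' counting did not use strand, and 175 of the 2216 exon bases of ncf4 lie over exons of pvalb7 on the other strand. Over the 6 libraries pvalb7 held 156 counts.

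The GTPase gene rac2 (ENSDARG00000038010, chromosome 3, 29380001 to 29412427, plus strand, 7 merged exons) encodes the switch of the complex and also steers the actin skeleton. It stood at 109, 83.5 and 68.0 CPM in mutant replicates 1 to 3. The level in wildtype replicates 1 to 3 was 93.0, 144 and 140 CPM. Mutant replicate 1 lay above wildtype replicate 1, so the groups overlapped. The log2 fold change was -0.53 ± 0.28 (SE, edgeR adjusted p = 0.305).

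**Figure D1:**
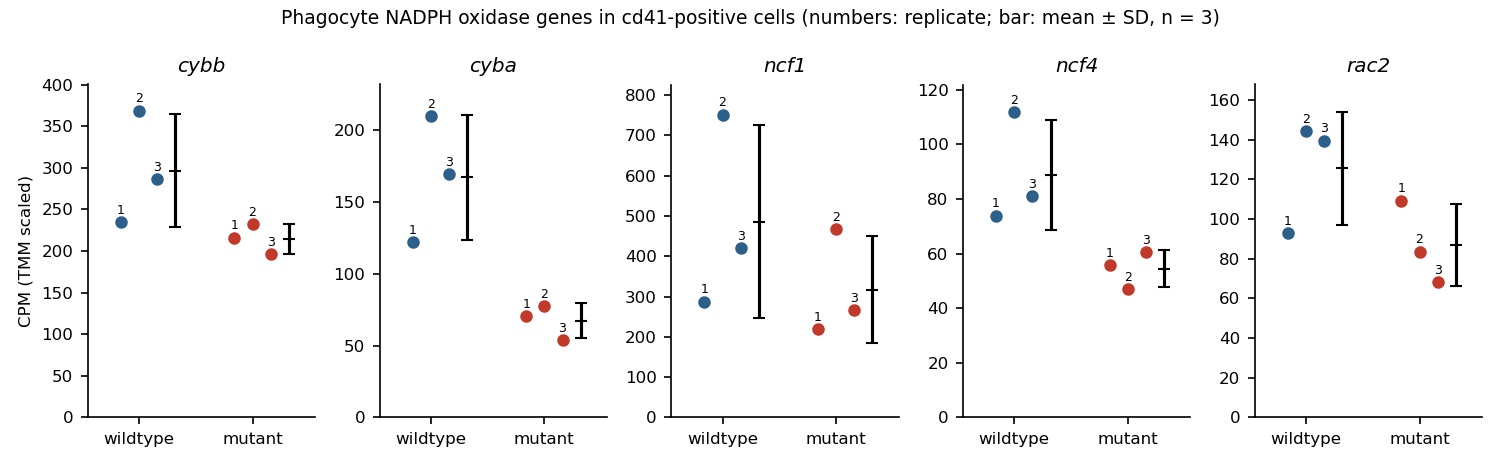
CPM after TMM scaling of the 5 members in each library, with replicate numbers beside the points and bars for mean ± SD (n = 3 per genotype). For cyba the mutant libraries sit well apart from the wildtypes, while ncf1 and rac2 overlap and replicate 2 of each genotype is highest for ncf1.

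Among the wildtype libraries all 5 members were lowest in replicate 1 and all 5 highest in replicate 2. The summed level of 27 matched leukocyte, neutrophil and macrophage markers had the same order, at 20791, 43045 and 33226 CPM in wildtype replicates 1 to 3. In mutant replicates 1 to 3 it was 12706, 16343 and 12446 CPM. Among the mutant libraries cybb, cyba and ncf1 were also highest in replicate 2, but rac2 was highest in replicate 1 and ncf4 in replicate 3. The share of all tested genes with the wildtype order was not counted. When each gene's log2 CPM was centred on its own mean, cybb lay nearest to the mean profile of the members (root mean square difference 0.142 over the 6 libraries), and cyba and ncf1 farthest (0.303 and 0.332). Among pairs of members the profiles of cybb and rac2 differed least (0.207) and those of ncf1 and rac2 most (0.506).

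**Figure D2:**
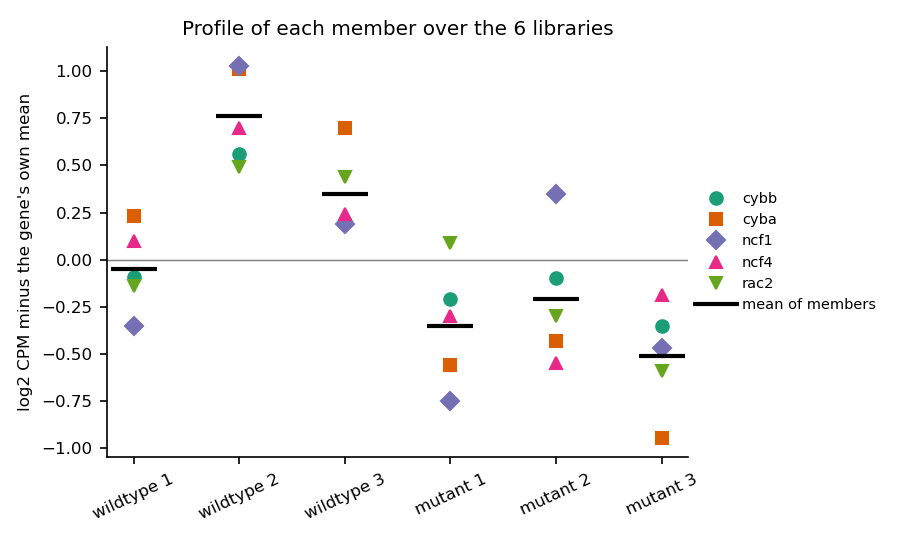
Log2 CPM of each member minus its own mean over the 6 libraries, with the mean of the members as a black dash. The members are together highest in wildtype replicate 2 (mean 0.76) and lowest in mutant replicate 3 (mean -0.51), and ncf1 stands above the others in mutant replicate 2 (0.35).

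Per length, ncf1 was the most abundant member and ncf4 the least in each of the 6 libraries. In wildtypes the mean level per length was 228 ± 112 fragments per kilobase per 1e6 TMM-scaled counts for ncf1, 105 ± 23.6 for rac2, 99.9 ± 26.1 for cyba, 84.1 ± 19.2 for cybb and 40.1 ± 9.09 for ncf4 (SD, n = 3). The ranges of rac2, cyba and cybb over the wildtype libraries overlapped. Within each wildtype library cybb was the lowest of these, while the order of rac2 and cyba varied. In mutants the levels were 149 ± 62.0 for ncf1, 72.3 ± 17.3 for rac2, 60.95 ± 5.12 for cybb, 40.3 ± 7.27 for cyba and 24.6 ± 3.07 for ncf4 (SD, n = 3). Thus, per length, cyba was above cybb in each wildtype library and below it in each mutant library. The members were among the more abundant transcripts, above 93.2% to 99.1% of tested genes per length in wildtype libraries and above 87.0% to 98.8% in mutant libraries.

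Of the membrane chains, cybb was the more abundant per length in mutants and cyba in wildtypes. This order rests on the exon lengths used, 3526 bases for cybb and 1673 for cyba. In CPM, without lengths, cybb was above cyba in each library of both genotypes. The level of cybb per length was 1.45, 1.42 and 1.73 times that of cyba in mutant replicates 1 to 3. In wildtype replicates 1 to 3 it was 0.909, 0.835 and 0.801 times that of cyba. This ratio needs no scaling between libraries and did not overlap between the genotypes. The gene lengths set the size of the ratio but not its fold difference between the genotypes. Of the 10 ratios between members 3 did not overlap, each with cyba as one of the pair. This share was close to that over all pairs of the 17634 tested genes counted in each library, of which 27.6% did not overlap. The level of cyba relative to rac2 was 0.464 to 0.667 in mutants and 0.873 to 1.04 in wildtypes, and relative to ncf4 1.18 to 2.18 and 2.19 to 2.77. Each of these 3 gave a two-sided exact permutation p of 0.1, the smallest that 3 against 3 can give, and 0.333 when adjusted over the 10 pairs.

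**Figure D3:**
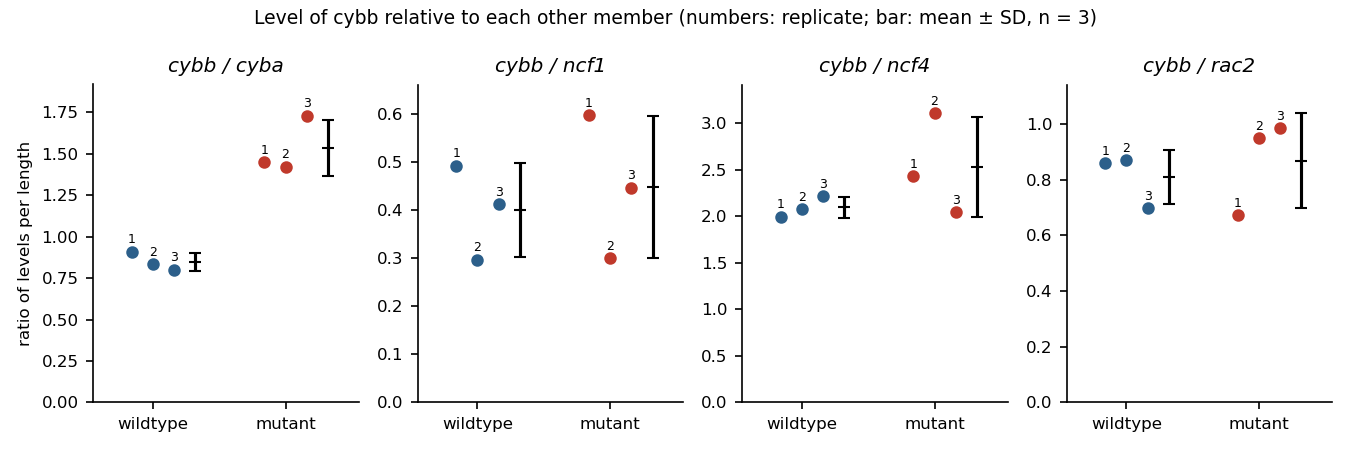
Ratio of the level of cybb per length to that of each other member in every library, with replicate numbers and mean ± SD (n = 3 per genotype). Only the ratio to cyba separates the genotypes, at 0.801 to 0.909 in wildtypes and 1.42 to 1.73 in mutants.

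Set against the summed leukocyte markers, cybb, ncf1, ncf4 and rac2 had higher means in mutants, and cyba a lower mean. The CPM of cybb was 1.57% ± 0.138 of the summed CPM of the 27 leukocyte markers in mutants and 0.948% ± 0.155 in wildtypes (SD, n = 3), with no overlap. That of rac2 was 0.639% ± 0.192 and 0.401% ± 0.0584, also with no overlap and with mutants higher. For cyba the shares were 0.488% ± 0.0622 and 0.529% ± 0.0529 and overlapped, as did those of ncf1 and ncf4. The lysozyme gene lyz made up 56.3% to 65.97% of this sum. Over the 10 pan-leukocyte markers alone, without lyz, cybb was at 15.3% to 16.3% in mutants and 9.87% to 11.5% in wildtypes, and cyba at 4.21% to 5.44% and 5.85% to 6.01%. Relative to leukocyte markers, mutant libraries were thus higher for cybb and rac2 with either list, and lower for cyba with the pan-leukocyte list. Both sums were themselves lower in mutants without overlap, at 1281.6 to 1425.5 against 2034.9 to 3542.7 CPM for the pan-leukocyte list. A gene that fell less than the markers is therefore higher in these ratios. The share of all tested genes that would separate in the same way was not counted. These ratios were given no test.

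**Figure D4:**
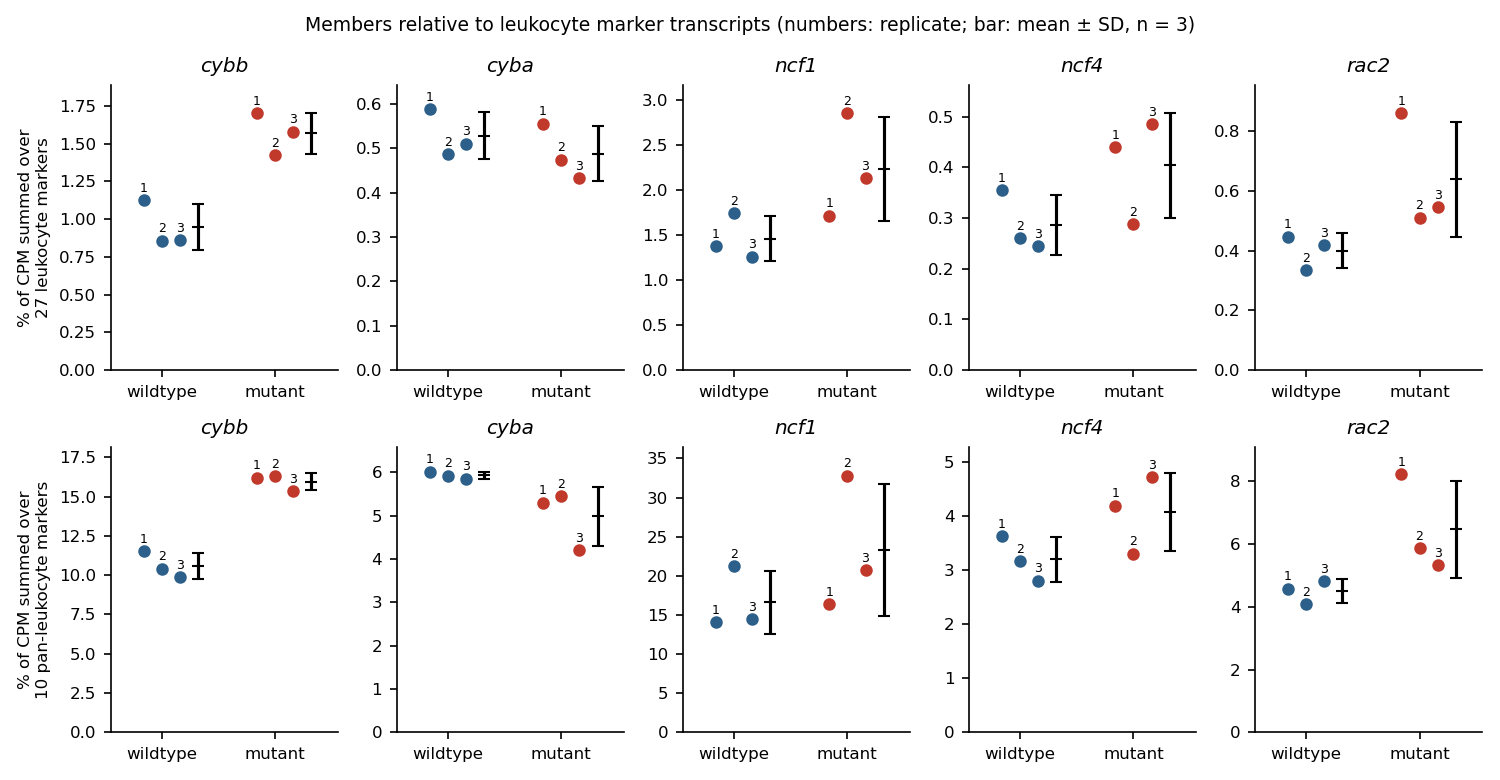
CPM of each member as a percentage of the summed CPM of 27 leukocyte, neutrophil and macrophage markers (top) and of 10 pan-leukocyte markers (bottom), per library, with mean ± SD (n = 3). For cybb and rac2 the mutants lie above the wildtypes in both rows, and for cyba the genotypes overlap in the top row and separate, mutants lower, in the bottom row.

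Some markers of the cells that carry the oxidase were also lower in the mutants. Of 26 tested leukocyte, neutrophil and macrophage markers 8 were lower, against 1.99% of all tested genes, none was higher and 18 did not pass by edgeR. At an unadjusted p below 0.05, 22 were lower and 0 higher, against 10.9% and 11.9% of all tested genes. DESeq2 and limma voom called 18 and 21 lower and 0 higher. Over all tested genes they called 6.24% and 7.22% lower, and 1297 and 1460 of 18722 higher. The phosphatase gene ptprc (CD45), spi1a of the PU.1 family, the actin bundler LCP1 and the actin regulator WAS were 2.52-fold, 2.84-fold, 2.54-fold and 2.41-fold lower (edgeR adjusted p = 0.0263, 0.0291, 0.0372 and 0.0391). The neutrophil protease gene MMP9 was 3.62-fold lower (adjusted p = 0.0209). Of the macrophage list, the neighbouring cathepsin genes ctss2.2 and ctss2.1, whose reads may be shared, were 9.52-fold and 2.62-fold lower (edgeR adjusted p = 0.0142 and 0.0406). The receptor gene csf1rb of that list was 3.29-fold lower (edgeR adjusted p = 0.0464). Which of the sorted cells carried csf1rb was not tested. The medians of the log2 fold changes were -1.19 for the leukocyte, -1.12 for the neutrophil and -1.39 for the macrophage markers, against 0.02 for all genes tested. None of the 8 passed when mutant replicate 2 or 3 or wildtype replicate 2 was left out. All but MMP9 also missed the threshold without wildtype replicate 3, csf1rb also without mutant replicate 1 and ctss2.1 also without wildtype replicate 1. In the fits where a call was lost, the edgeR adjusted p reached up to 0.163. A granule peroxidase gene with the orthologue symbol EPX (ENSDARG00000019521), which was chosen after its values were seen, stood at 959 ± 88.3 CPM on average over the mutant libraries and 2534 ± 1183 CPM over the wildtype ones (± SD, 3 each; log2 fold change -1.40 ± 0.36 SE, edgeR adjusted p = 0.0582; 0.00260 by DESeq2, 0.00442 by limma voom and 0.0330 with a replicate block). It may be the gene usually called mpx in zebrafish, a list entry that had no match by symbol. The neutrophil list and its sums leave this gene out.

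Of 10 other oxidase genes listed 8 were matched and 5 tested, and edgeR called 0 of them. At an unadjusted p below 0.05, 1 was higher and 0 lower, as was so for the adjusted p of DESeq2 and of limma voom. Over all tested genes 11.9% were higher and 10.9% lower at that unadjusted p. By adjusted p, DESeq2 and limma voom called 1297 and 1460 of the 18722 tested genes higher, and 6.24% and 7.22% lower. CYBC1, the chaperone that human and mouse phagocytes need to make the cytochrome, stood at 26.8 ± 3.01 CPM on average over the mutant libraries and 21.2 ± 5.82 CPM over the wildtype ones (± SD, 3 each; log2 fold change 0.34 ± 0.31 SE, adjusted p = 0.565). A gene of the same kind as ncf1, noxo1a, organizes the oxidase Nox1 in mammals. It stood at 45.6, 21.9 and 27.04 CPM in mutant replicates 1 to 3. In wildtype replicates 1 to 3 it stood at 14.3, 9.10 and 1.65 CPM, all below the mutants, as for 15.3% of tested genes. Its log2 fold change of 1.91 ± 0.66 (SE) did not pass by edgeR (adjusted p = 0.124) and passed by DESeq2, by limma voom and with the replicate number as a block (adjusted p = 0.0228, 0.0168 and 0.0377). Its relative noxo1b was at 39.9 CPM in mutant replicate 1 and between 0 and 1.03 CPM in the other 5 libraries. The log2 fold change of noxo1b was 4.53 ± 2.04 (SE, edgeR adjusted p = 0.226) and -2.10 without mutant replicate 1.

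The oxidase depends on Rac regulators, activating kinases, a supply of NADPH and enzymes that remove peroxide. In the 5 lists of such genes, other oxidase genes included, 80 genes were tested. By edgeR 6 were lower and 0 higher, against 1.99% and 3.34% of all tested genes, and 74 did not pass. At an unadjusted p below 0.05, 16 were lower and 5 higher, against 10.9% and 11.9% of all tested genes. DESeq2 called 11 lower and 2 higher, and limma voom 16 and 4. Over all tested genes DESeq2 and limma voom called 6.24% and 7.22% lower, and 1297 and 1460 of 18722 higher. The lists were chosen with earlier results of these data known, so these counts are a description.

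Of 19 tested Rac and Rap genes and their regulators 2 fell, none rose and 17 did not pass by edgeR (median log2 fold change -0.45). Over all tested genes 1.99% were called lower and 3.34% higher. At an edgeR unadjusted p below 0.05, 4 of this list were lower and 2 higher (rap1aa, 2.01-fold, and rhogd, 1.68-fold). These shares were 10.9% and 11.9% over all tested genes. DESeq2 called 4 of the list lower and 0 higher and limma voom 4 and 1. Over all tested genes DESeq2 and limma voom called 6.24% and 7.22% lower, and 1297 and 1460 of 18722 higher. PREX1, an exchange factor that loads Rac with GTP in mammalian neutrophils, was at 25.4 ± 8.86 CPM on average over the mutant libraries and 90.6 ± 14.5 CPM over the wildtype ones (± SD, 3 each; edgeR adjusted p = 0.0157). ELMO1, which acts with DOCK proteins on Rac, was at 97.3 ± 3.58 and 212 ± 33.9 CPM (adjusted p = 0.0279). For rac1a, of the GTPase family of rac2, the estimate was -0.31 ± 0.30 on the log2 scale (SE, edgeR adjusted p = 0.583). PREX1 did not pass without mutant replicate 3 or wildtype replicate 2 (adjusted p up to 0.0936), nor ELMO1 when any of mutant replicates 2 and 3 and wildtype replicates 2 and 3 was left out (up to 0.133).

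Of 17 tested activation genes 1 fell, against 1.99% of all tested genes, none rose and 16 did not pass by edgeR (median -0.31). At an edgeR unadjusted p below 0.05, 4 were lower and 0 higher, against 10.9% and 11.9% of all tested genes. DESeq2 called 2 lower and 0 higher and limma voom 5 and 0, where 6.24% and 7.22% of all tested genes were called lower. They called 1297 and 1460 of the 18722 tested genes higher. The gene that edgeR called was fcer1g, an adaptor of activating immune receptors, at 9.10 ± 0.747 CPM on average over the mutant libraries and 37.8 ± 12.2 CPM over the wildtype ones (± SD, 3 each; edgeR adjusted p = 0.0142). It missed the threshold when any of mutant replicates 2 and 3 and wildtype replicates 2 and 3 was left out (adjusted p = 0.0511 to 0.0841).

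Of 12 tested genes of NADPH supply 0 were called by edgeR (median -0.42), against 5.33% of all tested genes. At an unadjusted p below 0.05, 3 were lower and 1 higher, against 10.9% and 11.9% of all tested genes. DESeq2 called 1 lower and 0 higher and limma voom 2 and 1, where 6.24% and 7.22% of all tested genes were called lower. They called 1297 and 1460 of the 18722 tested genes higher. ME1, a malic enzyme that makes NADPH in the cytosol, stood at 4.28, 3.997 and 2.23 CPM in mutant replicates 1 to 3. Its wildtype values were 11.3, 10.03 and 7.95 CPM in the same order, all higher (log2 fold change -1.48 ± 0.45 SE, edgeR adjusted p = 0.0939, DESeq2 adjusted p = 0.0197). H6PD, which makes NADPH inside the endoplasmic reticulum, stood at 25.98, 16.2 and 20.8 CPM in mutant replicates 1 to 3. The wildtype replicates gave 13.9, 7.12 and 6.81 CPM, all lower (log2 fold change 1.18 ± 0.39 SE, edgeR adjusted p = 0.115, limma voom adjusted p = 0.0325). These 2 genes had the smallest p of the list and lay in opposite directions. Over all tested genes every mutant library lay below every wildtype library for 13.4%, and above for 15.3%.

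By edgeR 3 of 27 tested genes that handle superoxide and peroxide fell, against 1.99% of all tested genes (list median -0.27). None rose and 24 did not pass. Those that fell were the cystine importer slc7a11 (2.97-fold lower, adjusted p = 0.0206) and the peroxiredoxins prdx6 and prdx5 (4.15-fold and 2.38-fold lower, adjusted p = 0.0220 and 0.0326), which break down peroxides. At an edgeR unadjusted p below 0.05, 5 of the list were lower and 1 higher, against 10.9% and 11.9% of all tested genes. DESeq2 called 4 of the list lower and 1 higher, and limma voom 5 and 1. Over all tested genes DESeq2 and limma voom called 6.24% and 7.22% lower, and 1297 and 1460 of 18722 higher. With a replicate block edgeR called 4 of the list lower and 1 higher, against 653 and 917 of all tested genes. The peroxiredoxin gene PRDX3, chosen after its values were seen, lay in the other direction, at 70.5, 172 and 160 CPM in mutant replicates 1 to 3 and 28.98, 51.4 and 58.5 CPM in wildtype replicates 1 to 3. Every mutant library was above every wildtype library for PRDX3, which was so for 15.3% of tested genes. For PRDX3 the estimate was 1.54 ± 0.40 on the log2 scale (SE, edgeR adjusted p = 0.0576; 0.00433 by DESeq2, 0.00559 by limma voom, 0.00688 with a replicate block and 0.0105 without mutant replicate 1). HVCN1, a proton channel that balances the charge the oxidase moves, was low in both genotypes, at 5.29 ± 1.71 CPM on average over the mutant libraries and 5.73 ± 0.711 CPM over the wildtype ones (± SD, 3 each; log2 fold change -0.11 ± 0.46 SE, edgeR adjusted p = 0.915). The 3 that fell missed the threshold when mutant replicate 2 or 3 or wildtype replicate 2 was left out. The calls of slc7a11 and prdx5 were also lost without wildtype replicate 3. In the fits where a call was lost, the edgeR adjusted p reached up to 0.155.

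**Figure D5:**
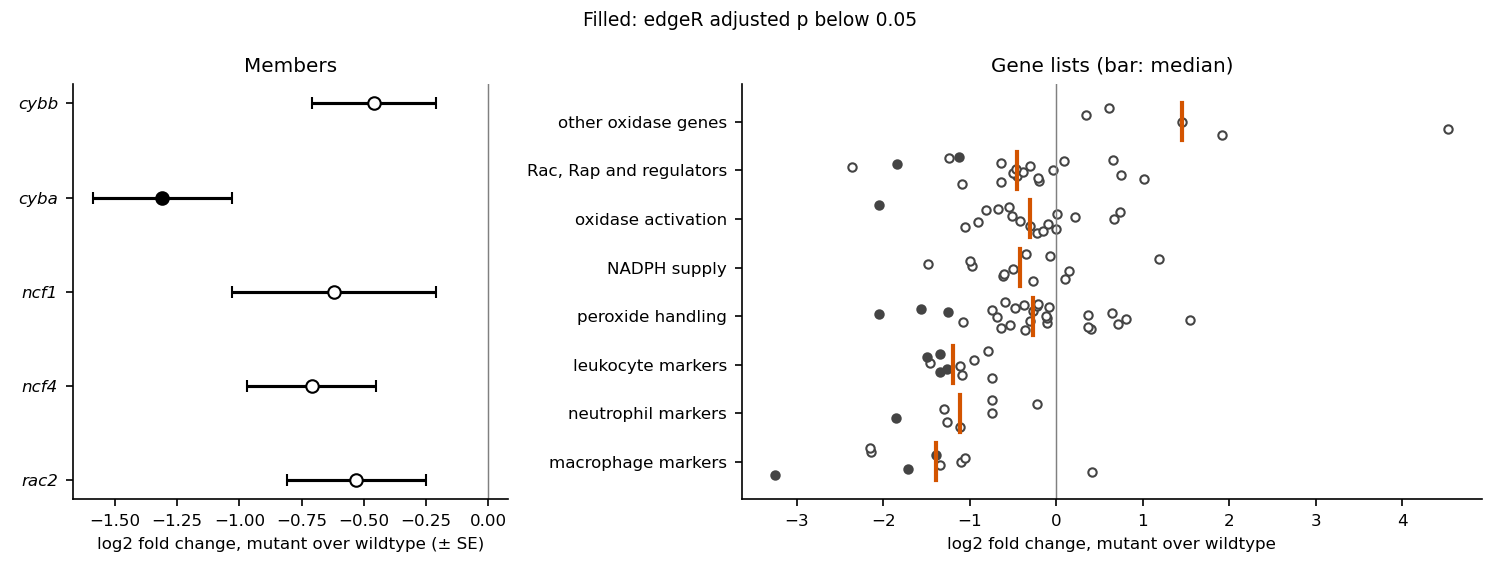
Left, log2 fold change of mutant over wildtype with SE for the 5 members. Right, the same for each tested gene of 5 pathway lists and 3 leukocyte marker lists, with the list median as an orange bar. Filled points passed the edgeR test, and among members this is cyba alone (-1.31).

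The genes whose profile was nearest to the mean of the members were REL, PLCG2, NARS1, CRLF3 and c5ar1, of 13654 named genes with a mean log2 CPM of at least 1. Their root mean square differences over the 6 libraries were 0.061, 0.061, 0.064, 0.072 and 0.076. The median was 0.667 over all tested genes at that level, with or without a symbol, apart from the members. REL encodes an NF-kB subunit, PLCG2 a phospholipase of immune receptor signalling, NARS1 an asparagine tRNA ligase, CRLF3 a cytokine receptor-like protein and c5ar1 a receptor for complement. Their log2 fold changes lay between -0.81 for PLCG2 and -0.63 for REL, and none passed by edgeR (adjusted p = 0.135 to 0.210). The root mean square difference reads all 6 libraries, so it holds both the genotype difference and the order of replicates described above.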

How the data were processed

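Polyadenylated RNA of sorted cells was sequenced at BGI with a low-input protocol, per the labels. The authors counted paired-end fragments per gene with featureCounts 1.5.0-p1 on GRCz10 with Ensembl release 85, per the file headers, without strand. Per the submitters' processing notes STAR 2.4.2a and DESeq2 were also used, with roles not given in the sources used here. The deposited counts are raw. Gene lengths are the exon lengths of the deposited table.

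Genotype was tested with edgeR 4.0.16 under R 4.3.3 by the quasi-likelihood F test on TMM-scaled libraries, after filterByExpr at a minimum count of 10 and total of 15, with Benjamini-Hochberg adjustment over 18722 genes. SE is the log2 fold change over the square root of F. CPM used TMM factors. Of list entries, the symbol gave 147 genes and the orthologue symbol 32 more, 23 entries had no match and 13 were ambiguous; mpx, mpeg1.1 and rac1b were among these. Named were the members, up to 4 called genes per list, some fixed genes and the 5 nearest profiles. Some genes of these lists are not reported here, and the list counts leave them out. Members and lists were chosen with earlier results of these data known. The alternatives were RLE, TMM without mitochondrial and globin genes, no filter, 1 CPM in 3 libraries, DESeq2 1.42.0, limma 3.58.1 voom, the replicate number as a block, and each library left out. The scripts were tested on data simulated from the gene means and library sizes, with 66 or 67 genes changed at each of 2-fold, 4-fold and 8-fold. Unchanged genes made up 4.69% of those called by edgeR, 32.2% for DESeq2 and 6.25% for limma voom. The edgeR test recovered 3.03% of the 2-fold and 33.3% of the 4-fold changes. The simulation changed fewer genes than the 998 that edgeR called in the data. It set no library apart, unlike mutant replicate 1 and wildtype replicate 1 of the data. These simulated rates therefore need not hold for the data. No libraries were alike within counting noise (chi-square per degree of freedom at least 18.3).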

Additional observations from a re-analysis of the deposited data

How the results depend on the processing

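The log2 fold change of each member kept its sign under all alternatives. With each library left out it ranged from -0.61 to -0.28 for cybb, -1.49 to -1.12 for cyba, -1.01 to -0.16 for ncf1, -0.83 to -0.52 for ncf4 and -0.74 to -0.38 for rac2. Under limma voom ncf4 passed at -0.76. Genes called higher and lower numbered 625 and 373 in edgeR, 1297 and 1168 with DESeq2, 1460 and 1352 with limma voom, and 51 to 1135 and 11 to 832 with each library left out. In the 5 pathway lists 0 and 6 were called in edgeR, 2 and 11 with DESeq2, 4 and 16 with limma voom, 1 higher without a filter, and 0 to 2 and 0 to 9 with each library left out. HVCN1 reversed to 0.13 without mutant replicate 3, in a range of -0.31 to 0.13, and noxo1b to -1.27 with limma voom and to -2.10 without mutant replicate 1, in a range of -2.10 to 5.31. The cause was not tested. Same-numbered libraries of the genotypes deviated together with correlations of 0.224, 0.155 and 0.0875, and each library correlated best with its own number. The labels state no batch, so the numbers were not taken as pairs in the main fit and were tried as a block only as an alternative. With the replicate number as a block 653 genes were lower, 3 pathway genes were higher, and cyba alone of the members passed (edgeR adjusted p = 0.0182). With 3 libraries a genotype, the edgeR test did not call cybb, ncf1, ncf4 or rac2. Whether it called other genes with differences of this size was not counted.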
